A study of Homo sapiens with 4 samples.

Results

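The genes described here are 41 components of human DNA replication, from the proteins that mark and license origins to the enzymes of the moving fork. They were chosen by symbol from a list set by function: 6 subunits of the origin recognition complex (ORC), the loading factors CDC6 and CDT1 with the CDT1 inhibitor GMNN, the helicase subunits MCM2 to MCM7, the helicase partners CDC45, MCM10 and GINS1 to GINS4, the clamp loader RFC1 to RFC5 with the clamp PCNA, 9 polymerase and primase subunits, RPA1 to RPA3, and FEN1 and LIG1. All 41 were listed in both RNA tables, and all passed the minimum mean of 1 RPKM that 10331 of the 13092 listed genes met. RPKM is a count of reads scaled to transcript length and to the total of reads assigned to genes. RNA came from RKO cells, an established poorly differentiated human colon carcinoma line, with 1 library from cells overexpressing HADH-S and 1 library from control cells whose genotype is labelled WT. HADH-S is, by the study's title, a nuclear isoform of hydroxyacyl-CoA dehydrogenase, and the purpose stated for the RNA libraries was to find genes that respond to it. Neither the vector, the promoter driving HADH-S nor the number of clones is given in the labels. With 1 library per condition there is no replicate spread and no test, so every difference below describes these 2 libraries.

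Replication is licensed in G1, when ORC on the origin, with CDC6 and CDT1, loads the MCM2 to MCM7 ring onto DNA, and geminin (GMNN) blocks CDT1 once S phase has begun so that origins are not licensed again. The ring becomes an active helicase when CDC45 and GINS join it. RPA coats the single strands, primase with polymerase alpha starts each new strand, RFC loads the PCNA ring, polymerases delta and epsilon extend, and FEN1 and LIG1 trim and join the fragments of the lagging strand. Many of these genes are induced before S phase through E2F transcription factors, and their mRNA is used as a sign of how many cells in a culture are cycling. In bulk RNA, fewer cells in S phase and less replication mRNA per cell cannot be told apart.

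The replication machinery was nearly level between the libraries. The RPKM ratio of HADH-S cells to control cells ran from 0.785 for PRIM1 to 1.30 for GINS3. None of the 41 genes reached a 2-fold difference when 1 was added to each RPKM before the log2 ratio of HADH-S cells to control cells was taken, and 0.300% of the 10331 genes were higher and 0.0484% lower by that rule. At 1.2-fold on the same scale, CDT1 and GINS3 were higher and RFC4 and PRIM1 were lower, or 2 genes (4.88%) each way. The shares over the 10331 genes were 11.5% higher and 6.76% lower at 1.2-fold, and over the 8253 genes with at least 200 reads in both libraries together, a depth each of the 41 reached, they were 8.13% and 5.06%.

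Each ratio has an exact 95% interval computed from read counts, which covers counting error only. That interval lay above 1 for 3 replication genes, CDT1, GINS3 and POLA2, and below 1 for 5, MCM6, GINS1, RFC2, RFC4 and PRIM1, and it included 1 for the other 33. Over the 10331 genes, 13.8% had an interval above 1 and 11.6% one below 1, and over the 8253 better covered genes the shares were 14.7% and 13.4%. The replication genes had 7.32% above, under both backgrounds, and 12.2% below, which lies between the backgrounds of 11.6% and 13.4%. Of the 41 log2 values, 17 were above 0 and 24 below, and their median was -0.05, against 0.01 over all genes tested. The pooled reads of the 41 genes had a ratio of 0.976, with a counting interval of 0.961 to 0.991. The SD of the log2 ratios over the 41 genes was 0.157, where counting error alone predicts 0.0981, and over the 8253 genes it was 0.207, where counting error predicts 0.118. When each interval was widened to the scatter of those 8253 genes, 1.83 times counting error, none of the 41 left out 1, against 3.36% of the 8253 above 1 and 2.69% below 1, so the 8 are clear of counting error only. With RPKM totals set equal, which lowers every ratio by the same factor, 2 replication genes (4.88%) had an interval above 1 and 12 (29.3%) one below 1. The shares under that scaling were 11.4% above and 14.4% below over the 10331 genes, and 11.8% and 16.9% over the 8253.

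**Figure D1:**
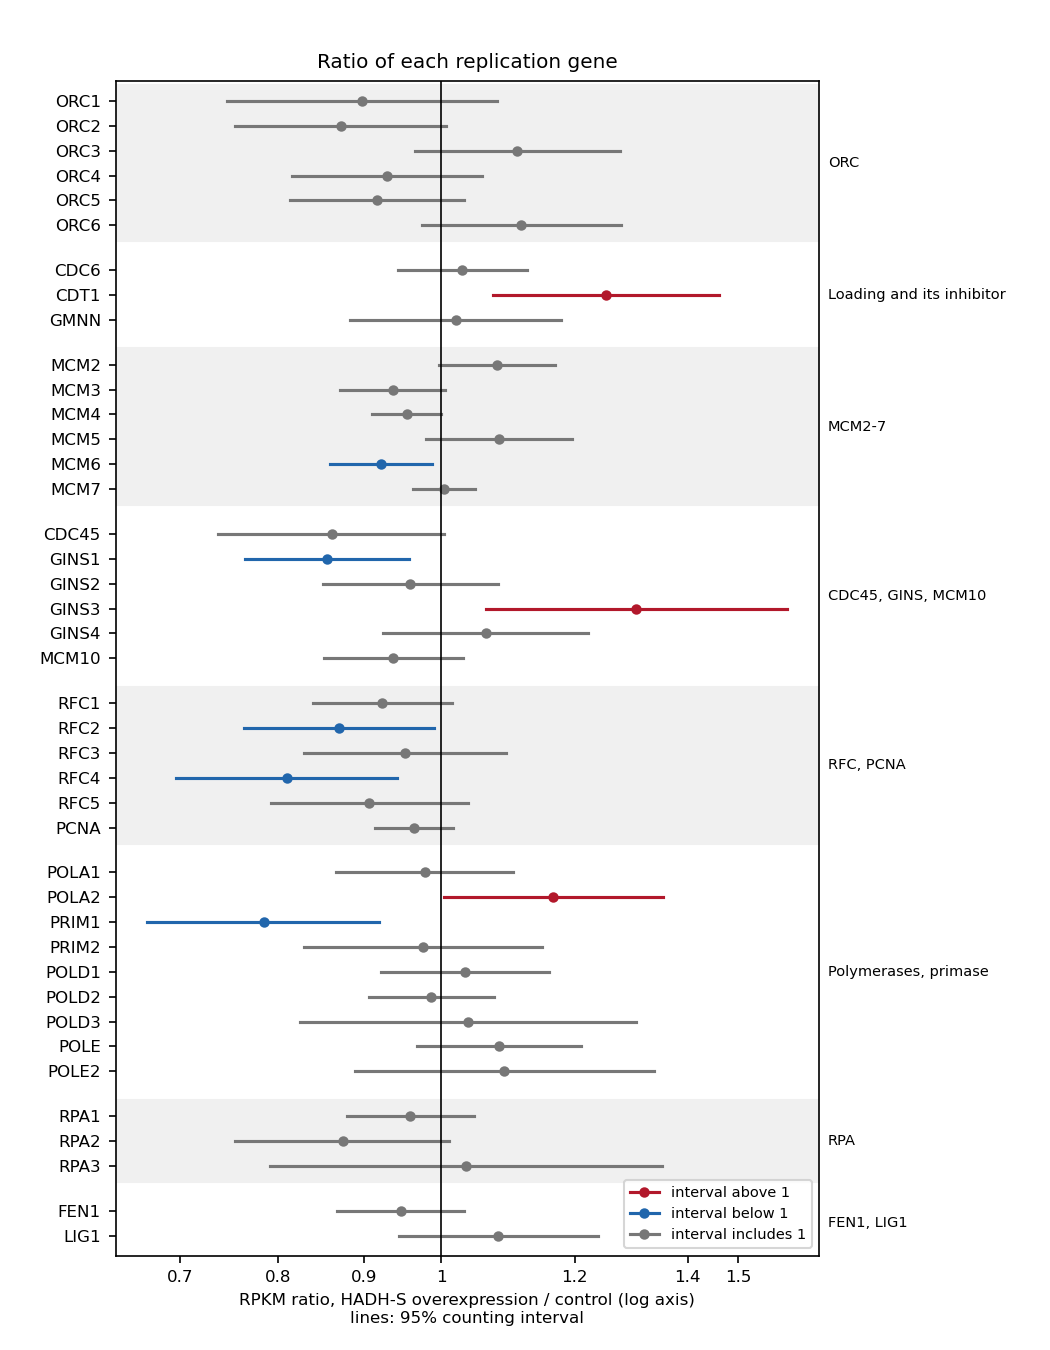
RPKM ratio of each of the 41 replication genes, HADH-S overexpression over control, on a log axis, with lines for the 95% counting interval and shading by complex. Intervals clear of 1 belong to CDT1, GINS3 and POLA2 on the high side and to MCM6, GINS1, RFC2, RFC4 and PRIM1 on the low side, and all 6 points of the RFC and PCNA group lie left of 1.

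The promoters of the 8 genes whose intervals lay clear of 1 are shown because these genes stood on both sides of the comparison and each holds a word searched for as an E2F site. Each is the RefSeq GRCh38.p14 sequence from 180 bases before the annotated gene start through the first 15 bases of the gene, 195 bases in all, 5′ to 3′ on the strand of the gene. Capitals mark core words of E2F recognition sequences found on either strand, with overlapping words merged. The first word searched was TTCGCGC. The second word searched was TTGGCGC. The third word, added once promoter windows had been read, was TTCCCGC, and in 5 of the 8 genes (CDT1, GINS3, RFC2, RFC4 and PRIM1) it is the only one present. The first 3 genes had the higher value with HADH-S and the last 5 the lower one.
CDT1: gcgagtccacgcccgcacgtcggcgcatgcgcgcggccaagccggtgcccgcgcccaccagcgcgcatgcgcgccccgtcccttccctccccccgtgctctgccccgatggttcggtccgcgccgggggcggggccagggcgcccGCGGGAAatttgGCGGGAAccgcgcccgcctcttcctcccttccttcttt
GINS3: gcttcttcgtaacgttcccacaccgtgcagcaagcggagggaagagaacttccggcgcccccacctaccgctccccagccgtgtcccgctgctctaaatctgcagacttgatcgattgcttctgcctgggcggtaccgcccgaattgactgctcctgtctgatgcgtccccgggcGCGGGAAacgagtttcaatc
POLA2: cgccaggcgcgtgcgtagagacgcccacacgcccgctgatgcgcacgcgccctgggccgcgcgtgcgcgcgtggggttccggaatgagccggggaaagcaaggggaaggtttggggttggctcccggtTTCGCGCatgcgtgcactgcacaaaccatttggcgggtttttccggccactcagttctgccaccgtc
MCM6: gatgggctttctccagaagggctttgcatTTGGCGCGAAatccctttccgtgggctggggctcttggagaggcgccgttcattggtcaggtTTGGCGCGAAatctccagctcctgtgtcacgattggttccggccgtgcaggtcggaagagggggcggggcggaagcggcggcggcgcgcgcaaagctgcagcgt
GINS1: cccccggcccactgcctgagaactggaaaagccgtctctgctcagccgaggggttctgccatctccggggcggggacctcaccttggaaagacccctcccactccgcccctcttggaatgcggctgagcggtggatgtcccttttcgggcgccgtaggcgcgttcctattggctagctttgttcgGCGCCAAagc
RFC2: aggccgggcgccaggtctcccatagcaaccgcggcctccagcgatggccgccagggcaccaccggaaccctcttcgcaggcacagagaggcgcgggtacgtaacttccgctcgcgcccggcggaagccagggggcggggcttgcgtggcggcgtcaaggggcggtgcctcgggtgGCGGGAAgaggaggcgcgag
RFC4: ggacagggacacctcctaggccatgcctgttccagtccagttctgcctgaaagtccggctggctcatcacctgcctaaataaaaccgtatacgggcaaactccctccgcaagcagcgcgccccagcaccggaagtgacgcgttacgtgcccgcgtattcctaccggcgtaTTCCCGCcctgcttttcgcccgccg
PRIM1: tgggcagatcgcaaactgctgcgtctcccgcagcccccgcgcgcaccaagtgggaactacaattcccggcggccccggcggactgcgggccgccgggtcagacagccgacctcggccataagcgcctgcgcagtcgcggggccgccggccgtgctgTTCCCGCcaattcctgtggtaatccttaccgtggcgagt

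In these windows the words lay close to the start for 7 of the genes and farther upstream for MCM6. Positions are those of the first base of a word, counted from 0 at the first base of the gene. CDT1 (chr16:88803609-88803803, plus strand) had a pair of places, at -35 and -23. GINS3 (chr16:58392291-58392485, plus) and RFC2 (chr7:74254385-74254579, minus) each had 1 place at -5. POLA2 (chr11:65261782-65261976, plus) had 1 at -52, PRIM1 (chr12:56752309-56752503, minus) 1 at -24 and RFC4 (chr3:186806468-186806662, minus) 1 at -10, with a second at 22 outside the printed window. MCM6 (chr2:135876429-135876623, minus) had a pair of merged runs, at -151 and -89, and GINS1 (chr20:25407493-25407687, plus) had its place at 5, inside the transcript. These genes were shown because they stood on both sides of the comparison and each holds a word. That words occurred in genes with higher and with lower values was therefore set by this choice and is not a result.

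Over the full window of 250 bases before to 50 bases after the start, 35 of the 41 genes had a RefSeq promoter in the sequence table, and 24 of the 35 (68.6%) held at least 1 E2F word. The share was 19.4% over 8423 promoters of genes tested here and 11.2% over all 27305 promoters in the table. Since the third word was chosen with such windows in view, these shares are partly set by that choice. With the first and second words alone, 15 of the 35 (42.9%) held one, against 9.27% of the promoters of tested genes and 5.18% of all. The CCAAT box, bound by NF-Y, was in 57.1% of the replication promoters, against 37.6% of the promoters of tested genes and 35.7% of all. The cell cycle genes homology region of late cell cycle genes, searched as TTTGAA and also in the variant form written TTCGAA, was in 1 of the 35 (2.86%), against 10.9% and 16.6%. The GC box GGGCGG was in 71.4%, against 72.8% and 44.6%. All words were searched on both strands, and matches of different words may share bases. A match is a run of letters and not evidence of binding. The 24 genes with an E2F word had log2 values from -0.34 to 0.36 with a median of -0.06, and the 11 without one had values from -0.21 to 0.15 with a median of -0.08. All 8 genes with an interval clear of 1 were among the 24 and 0 among the 11, but with the first and second words alone 3 were among the 15 genes with a word and 5 among the 20 without. No test was made of either split.

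**Figure D2:**
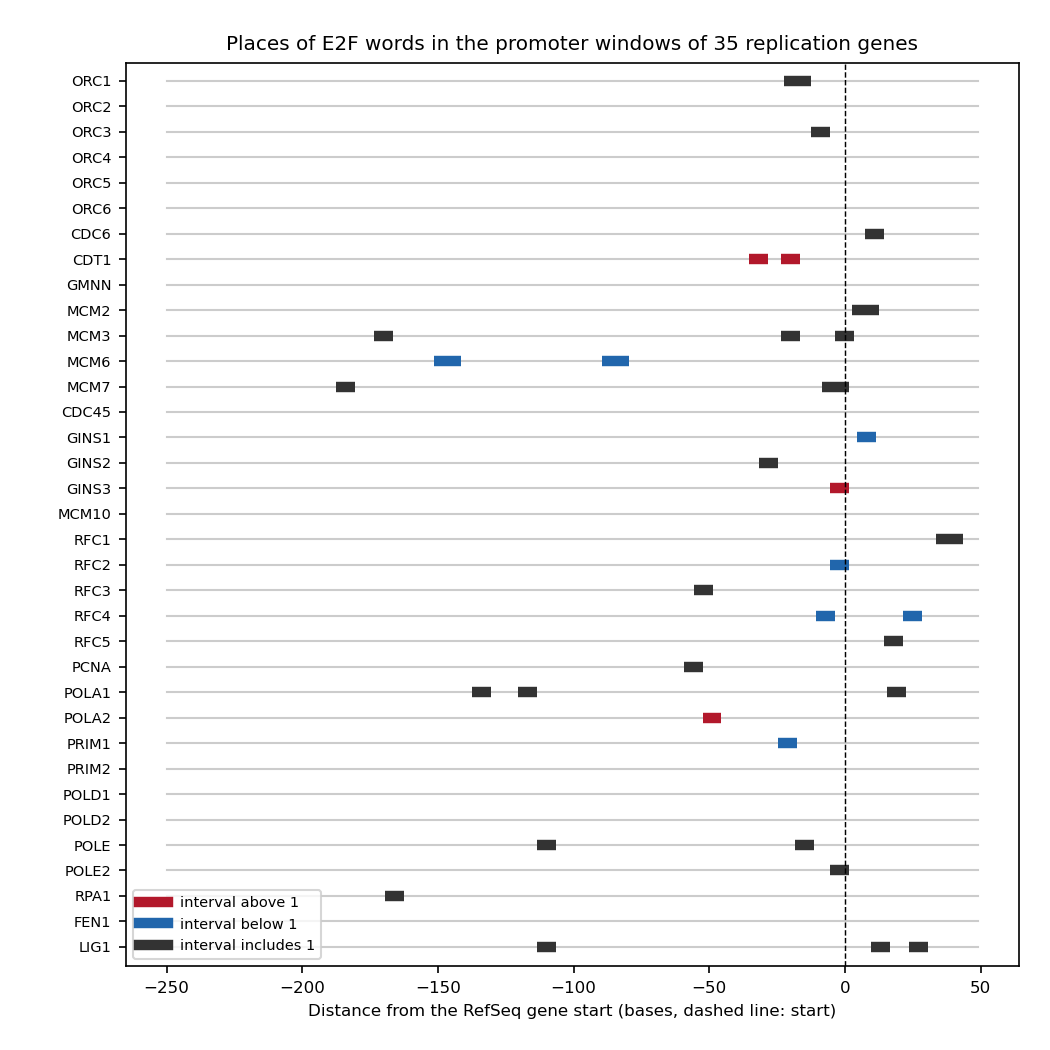
Places of the E2F words (bars) in the promoter windows of the 35 replication genes with a RefSeq promoter, as distance from the annotated gene start in bases. Most bars lie near the start, and all 6 genes of the RFC and PCNA group have at least 1. For CDT1, GINS3, RFC2, RFC4 and PRIM1 the bars are only the third word, which was added after promoter windows had been read. Coloured bars mark genes with an interval above 1 (CDT1, GINS3, POLA2) and below 1 (MCM6, GINS1, RFC2, RFC4, PRIM1). That both kinds have bars is not a result, given that choice of word.

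In the origin recognition complex, 4 of the 6 subunits were lower with HADH-S and 2 were higher, and every counting interval included 1. ORC1, the ATPase subunit that is made anew each cycle, was at 10.5 RPKM in HADH-S cells against 11.7 in control cells (ratio 0.898, interval 0.747 to 1.08). ORC2 was at 12.1 RPKM in HADH-S cells against 13.9 in control cells, the lowest ratio of the complex at 0.872 (0.754 to 1.01). ORC6, the smallest subunit, was at 40.9 RPKM in HADH-S cells against 36.7 in control cells, the highest ratio at 1.12 (0.974 to 1.28). ORC3 stood with ORC6 on the higher side, at 25.1 RPKM in HADH-S cells against 22.6 in control cells. The core subunits ORC4 (9.89 RPKM in HADH-S cells, 10.6 in control cells) and ORC5 (41.1 RPKM in HADH-S cells, 44.8 in control cells) were on the lower side. The median log2 value of the complex was -0.11, and its pooled reads had a ratio of 0.971 (0.918 to 1.03). Within each library the subunits differed more from one another, ORC4 being the lowest and ORC5 the highest, than any of them did between the libraries.

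Among the loading factors, CDT1 alone had an interval that left out 1. CDT1, which brings the MCM ring to ORC and is destroyed in S phase, was at 20.5 RPKM in HADH-S cells against 16.4 in control cells, from 381 and 296 reads. Its ratio was 1.25, with an interval of 1.07 to 1.46, and it was the only replication gene whose 99% interval also lay above 1. CDC6, the ATPase that closes the ring with ORC, was at 32.8 RPKM in HADH-S cells against 31.8 in control cells (ratio 1.03, 0.942 to 1.12). Geminin (GMNN) was at 44.3 RPKM in HADH-S cells against 43.5 in control cells (ratio 1.02, 0.882 to 1.18). All 3 log2 values were above 0, and that of GMNN, 0.03, was -0.03 once a trend of log2 values on transcript length was removed. The RPKM of CDT1 relative to geminin was 0.463 in HADH-S cells against 0.377 in control cells, and the ratio of these ratios, which does not depend on library size, was 1.23 with an interval of 0.992 to 1.52. This interval includes 1. Genes of CDT1 turnover had lower values in 5 of 6 cases. Of these 6 genes, 2 had an interval below 1 and 0 had one above 1. Over all genes tested, 11.6% lay below and 13.8% above. A list of 6 is too short for its share to be read, and its part in the CDT1 value was not tested. The largest difference was that of CUL4B, a ubiquitin ligase scaffold, at 12.3 RPKM in HADH-S cells against 15.1 in control cells (ratio 0.813, 0.691 to 0.955). DTL, the substrate receptor that binds CDT1 on PCNA, was at 24.7 RPKM in HADH-S cells against 28.1 in control cells (ratio 0.879, 0.796 to 0.971), while cyclin F (CCNF) was at 11.9 RPKM in HADH-S cells against 10.7 in control cells (ratio 1.11, 0.951 to 1.30).

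The helicase ring was the best covered complex, with 12920 reads in HADH-S cells against 12785 in control cells, and its total was level. Its reads together had a ratio of 0.983 (0.959 to 1.01), and its subunits ran from 0.921 for MCM6 to 1.08 for MCM5. MCM6 was at 59.5 RPKM in HADH-S cells against 64.6 in control cells (interval 0.859 to 0.988), and MCM5 at 34.6 RPKM in HADH-S cells against 32.0 in control cells (0.979 to 1.2). MCM2 was at 54.9 RPKM in HADH-S cells against 50.9 in control cells (ratio 1.08, 0.996 to 1.17), and MCM3 at 66.0 RPKM in HADH-S cells against 70.6 in control cells (ratio 0.936, 0.871 to 1.01). These subunits form a ring with 1 copy of each, and MCM2 and MCM5 stood on one side of 1 while MCM3, MCM4 and MCM6 stood on the other. MCM4 was at 156 RPKM in HADH-S cells against 164 in control cells (ratio 0.954, 0.910 to 1.00), and MCM7 at 251 RPKM in HADH-S cells against 250.03 in control cells (ratio 1.00, 0.962 to 1.05). The MCM5 to MCM6 ratio was 0.582 in HADH-S cells against 0.496 in control cells, a ratio of ratios of 1.17 (1.04 to 1.33), or 0.939 to 1.47 when widened, which includes 1.

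The shares of the 6 subunits in the summed RPKM of the ring were close in both libraries. MCM7 made up 40.3% in HADH-S cells against 39.6% in control cells, MCM4 25.1% in HADH-S cells against 25.9% in control cells, and MCM5, the lowest, 5.57% in HADH-S cells against 5.07% in control cells. The subunits thus differed more from one another in mRNA level than any of them did between the libraries. MCM7 overlaps AP4M1 on the opposite strand by 604 bases of the annotation, and AP4M1 itself was at 11.6 RPKM in HADH-S cells against 7.40 in control cells. Whether the counting used strand is not given in the sources used here, so reads of the shared stretch cannot be told apart. In all, 8 of the 41 replication genes overlap a listed protein-coding gene on the opposite strand, among them ORC1, ORC3, RFC5 and RPA3.

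**Figure D3:**
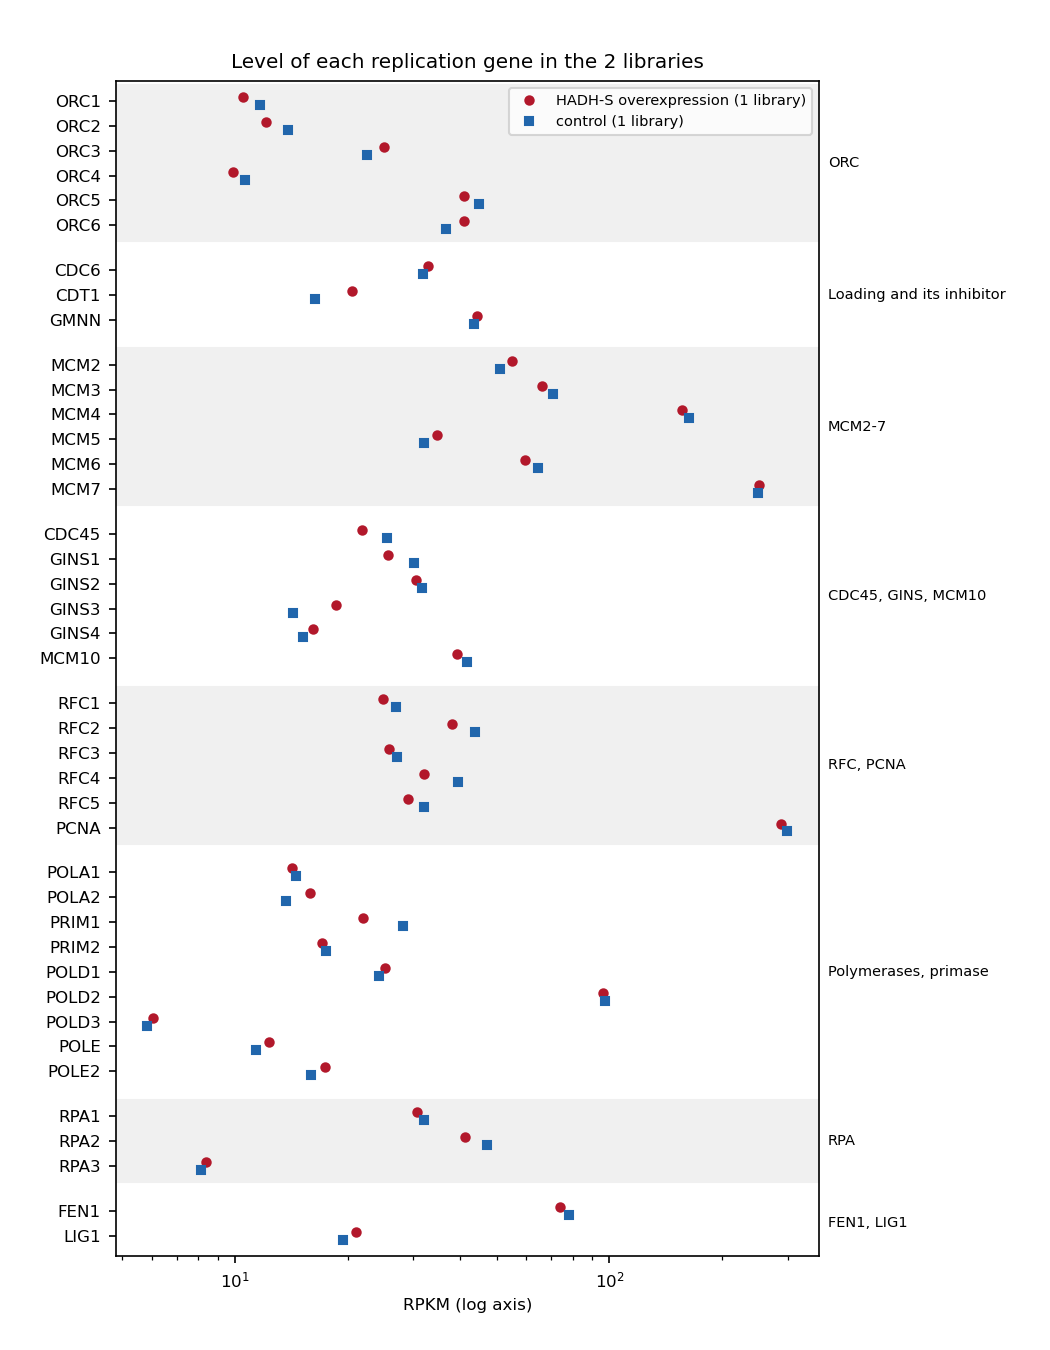
RPKM of each replication gene on a log axis, with a circle for the HADH-S overexpression library above a square for the control library, grouped by complex. PCNA and MCM7 lie farthest right and POLD3 and RPA3 farthest left in both libraries, with the symbols of PCNA at 287 and 298 RPKM and those of POLD3 at 6.07 and 5.85 RPKM.

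The factors that switch the ring on went both ways. GINS3 was at 18.6 RPKM in HADH-S cells against 14.3 in control cells, from 224 and 167 reads, with the highest ratio of the 41 genes at 1.30 (1.06 to 1.60). GINS1 was at 25.7 RPKM in HADH-S cells against 30.0 in control cells, from 592 and 673 reads (ratio 0.856, 0.765 to 0.957). Both are subunits of the same tetramer, and the GINS3 to GINS1 ratio was 0.725 in HADH-S cells against 0.475 in control cells, a ratio of ratios of 1.52 (1.21 to 1.93). Widened by the factor of 1.83, that interval was 0.992 to 2.35 and included 1. GINS2 was at 30.4 RPKM in HADH-S cells against 31.7 in control cells (ratio 0.959), and GINS4 at 16.2 RPKM in HADH-S cells against 15.2 in control cells (ratio 1.06). CDC45, the helicase cofactor loaded with GINS, was at 21.9 RPKM in HADH-S cells against 25.4 in control cells (ratio 0.861, 0.738 to 1.00). MCM10, needed for helicase activation, was at 39.2 RPKM in HADH-S cells against 41.8 in control cells (ratio 0.937, 0.852 to 1.03). The 6 genes had a median log2 value of -0.08. The 15 pairs of genes compared in this way were picked with their values known, this one as the highest ratio against a low one, so its interval describes that choice and supports nothing further.

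All 6 genes of the clamp and its loader were lower with HADH-S. All 6 log2 values stayed below 0 once a trend of log2 values on transcript length was removed. The other alternatives could not turn them positive, since a pseudocount keeps the sign and each rescaling lowered the values. The median log2 value was -0.12, the lowest of the 8 groups, where 47.8% of all genes tested had a value below 0. RFC4, a small ATPase subunit, was at 32.0 RPKM in HADH-S cells against 39.6 in control cells, from 323 and 388 reads (ratio 0.810, 0.696 to 0.941). RFC2 was at 38.0 RPKM in HADH-S cells against 43.7 in control cells, from 446 and 499 reads (ratio 0.869, 0.763 to 0.990). The remaining subunits were lower by amounts within counting error. RFC5 was at 28.9 RPKM in HADH-S cells against 31.9 in control cells (ratio 0.906), RFC1, the large subunit, at 24.9 RPKM in HADH-S cells against 27.0 in control cells (ratio 0.923), and RFC3 at 25.8 RPKM in HADH-S cells against 27.1 in control cells (ratio 0.952). The reads of RFC1 to RFC5 together had a ratio of 0.898 (0.850 to 0.949), and those of all 6 genes with PCNA 0.931 (0.896 to 0.967). Both intervals cover counting error only and were not widened to the scatter over genes. PCNA, the sliding clamp and the most abundant of the 41 mRNAs, was at 287 RPKM in HADH-S cells against 298 in control cells (ratio 0.963, 0.913 to 1.02).

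RFC2 to RFC5 also serve other loaders, in which a different large subunit replaces RFC1, and the ratios of these large subunits lay on both sides of 1. The intervals given for them cover counting error only and, unlike those of the 41 genes, were not widened to the scatter over genes. ATAD5, whose complex unloads PCNA, was at 7.19 RPKM in HADH-S cells against 9.90 in control cells, from 344 and 461 reads (ratio 0.726, 0.629 to 0.836). RAD17, which loads the checkpoint clamp, was at 9.02 RPKM in HADH-S cells against 11.8 in control cells, from 203 and 258 reads (ratio 0.765, 0.634 to 0.923). Both ratios were below that of every RFC subunit. CHTF18, the large subunit of the loader used with polymerase epsilon and in sister chromatid cohesion, was at 8.81 RPKM in HADH-S cells against 6.40 in control cells, from 218 and 154 reads (ratio 1.38, 1.12 to 1.70). Its partner DSCC1 was at 37.4 RPKM in HADH-S cells against 31.2 in control cells (ratio 1.2, 1.06 to 1.36), and the third partner, CHTF8, at 4.20 RPKM in HADH-S cells against 3.56 in control cells (ratio 1.18, 0.851 to 1.64). CHTF8 was added after its values were seen, to complete the complex.

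**Figure D4:**
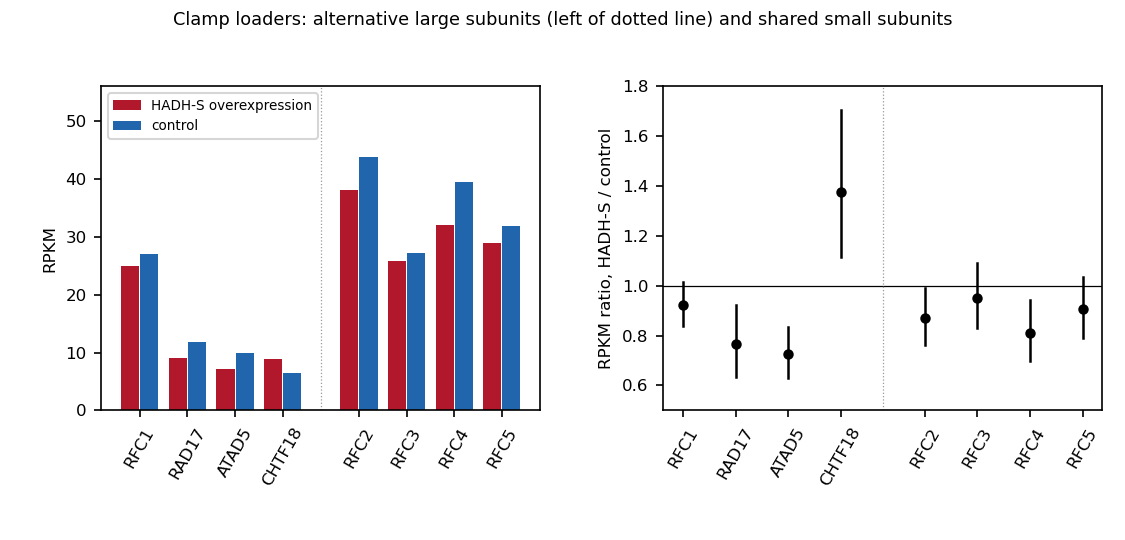
Left panel, RPKM of 4 alternative large subunits of clamp loaders and of the small subunits RFC2 to RFC5 they share, with the HADH-S overexpression library left of the control library. Right panel, the RPKM ratio with its 95% counting interval, where CHTF18 lies at 1.38 and the other 7 genes lie between 0.726 and 0.952.

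In the polymerases 5 of 9 subunits were higher with HADH-S and 4 lower, with a median log2 value of 0.05, and the differences clear of counting error were in the primase complex. PRIM1, the catalytic primase subunit that makes the RNA primer, was at 22.1 RPKM in HADH-S cells against 28.1 in control cells, from 288 and 357 reads. Its ratio of 0.785 (0.670 to 0.919) was the lowest of the 41 genes. POLA2, the accessory subunit of polymerase alpha in the same 4-subunit complex, was at 15.9 RPKM in HADH-S cells against 13.7 in control cells, from 393 and 328 reads (ratio 1.17, 1.00 to 1.35). The other 2 subunits were close to 1, with PRIM2 at 17.0 RPKM in HADH-S cells against 17.5 in control cells (ratio 0.976) and POLA1, the polymerase alpha catalytic subunit, at 14.2 RPKM in HADH-S cells against 14.6 in control cells (ratio 0.978). The POLA2 to PRIM1 ratio was 0.722 in HADH-S cells against 0.486 in control cells, a ratio of ratios of 1.49 (1.19 to 1.85), and the widened interval, 0.995 to 2.22, included 1. This pair too was picked for its opposite values.

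The replicative polymerases showed smaller differences. POLD1, the catalytic subunit of polymerase delta, was at 25.1 RPKM in HADH-S cells against 24.3 in control cells (ratio 1.03, 0.921 to 1.16). Its partner POLD2 was at 96.0 RPKM in HADH-S cells against 97.3 in control cells (ratio 0.986), and POLD3, the lowest of the 41, at 6.07 RPKM in HADH-S cells against 5.85 in control cells (ratio 1.04, 0.825 to 1.31). POLE, the catalytic subunit of polymerase epsilon, was at 12.3 RPKM in HADH-S cells against 11.4 in control cells (ratio 1.08, 0.968 to 1.21), and POLE2 at 17.4 RPKM in HADH-S cells against 16.0 in control cells (ratio 1.09, 0.888 to 1.34). None of these 5 intervals left out 1. POLD2 stood well above POLD1 in both libraries.

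For RPA and the lagging-strand enzymes every counting interval included 1, though that of RPA2 lay below 1 with RPKM totals set equal. RPA1, the large subunit, was at 30.7 RPKM in HADH-S cells against 32.0 in control cells (ratio 0.959, 0.879 to 1.05). RPA2, which carries the damage-responsive phosphorylation sites, was at 41.1 RPKM in HADH-S cells against 47.0 in control cells (ratio 0.874, 0.755 to 1.01). RPA3, the smallest subunit, was at 8.39 RPKM in HADH-S cells against 8.11 in control cells, from 118 and 111 reads, the fewest of the 41 genes (ratio 1.03, 0.791 to 1.35). Its reads were divided by a transcript of 2020 bases with 1172 bases before the coding sequence of 363 bases, and its gene overlaps UMAD1 on the opposite strand, so its place below RPA1 and RPA2 depends on that transcript. FEN1, the flap endonuclease, was at 73.8 RPKM in HADH-S cells against 78.0 in control cells (ratio 0.946, 0.868 to 1.03), and LIG1, the ligase that seals the fragments, at 21.0 RPKM in HADH-S cells against 19.5 in control cells (ratio 1.08, 0.944 to 1.24).

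The order of levels was the same at the top in both libraries. PCNA, MCM7, MCM4, POLD2, FEN1, MCM3, MCM6 and MCM2 held the first 8 places in that order, each above the next of the 8 by more than counting error in both libraries. Below them the levels crowd together. Of the 40 pairs of neighbours in the order of the HADH-S library, which is not the order of the control library below these places, 10 were apart the same way in both libraries. The 41 mRNAs took 0.469% of all reads in HADH-S cells against 0.480% in control cells, and 20 of them lay above the 75th percentile of the genes tested in both libraries. These ranks compare RPKM, which is per length, over the 1 transcript that the authors' table names for each gene.

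Of the other genes of the pathway, 111 of 113 in 10 lists had a mean of at least 1 RPKM. Their counting intervals lay above 1 for 7 and below 1 for 23, beside the 13.8% and 11.6% over all genes tested, with a median log2 value of -0.03. Origin firing genes had 3 positive and 9 negative values with a median of -0.06. In that list the firing factor TICRR was at 4.44 RPKM in HADH-S cells against 5.11 in control cells (ratio 0.869, 0.718 to 1.05), CDK2 at 51.8 RPKM in HADH-S cells against 56.7 in control cells (ratio 0.913, 0.817 to 1.02), and the helicase RECQL4 at 40.4 RPKM in HADH-S cells against 36.9 in control cells (ratio 1.09, 1.00 to 1.19). Fork protection and checkpoint genes had intervals below 1 for 3 of 11 and above 1 for 0. They included the checkpoint kinase ATR at 11.5 RPKM in HADH-S cells against 14.0 in control cells (ratio 0.825, 0.743 to 0.917) and, with an interval that includes 1, the checkpoint clamp subunit HUS1 (ratio 0.820, 0.655 to 1.02).

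The other polymerase subunits and lagging-strand factors had intervals below 1 for 3 of 9 and above 1 for 0, where 11.6% of all genes tested lay below and 13.8% above. RNASEH2A, the catalytic subunit of an RNase that removes ribonucleotides, was at 16.4 RPKM in HADH-S cells against 19.3 in control cells (ratio 0.853, 0.731 to 0.996), and topoisomerase TOP2A at 40.2 RPKM in HADH-S cells against 46.6 in control cells (ratio 0.862, 0.805 to 0.922). POLD4, the fourth polymerase delta subunit, rested on 27 and 21 reads (ratio 1.25, 0.681 to 2.33). Nucleotide supply genes had a median of 0.00, with thymidine kinase TK1 at 51.1 RPKM in HADH-S cells against 43.5 in control cells (ratio 1.18, 1.04 to 1.33) and deoxycytidine kinase DCK at 21.0 RPKM in HADH-S cells against 24.5 in control cells (ratio 0.858, 0.746 to 0.987). RRM1, the large subunit of ribonucleotide reductase, was at 109 RPKM in HADH-S cells against 115 in control cells. Chromatin assembly genes had a median of -0.02, with the histone chaperone CHAF1A at a ratio of 1.13 (1.01 to 1.26), NASP at 0.930 (0.860 to 1.01) and SUPT16H at 0.945 (0.901 to 0.991).

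Upstream of these genes, the E2F and RB family had a median of 0.01, with 8 of 16 values on each side of 0. E2F5, a repressor E2F, was at 15.1 RPKM in HADH-S cells against 12.2 in control cells (ratio 1.24, 1.01 to 1.54), and the RB relatives RBL2 and RBL1 had ratios of 0.793 (0.686 to 0.916) and 0.843 (0.728 to 0.977). Among 6 CDK inhibitors tested, CDKN1A, which binds both CDKs and PCNA, was at 82.3 RPKM in HADH-S cells against 64.7 in control cells, from 1299 and 993 reads (ratio 1.27, 1.17 to 1.38). CDKN2D (44 and 27 reads) and CDKN1C (13 and 20 reads) had intervals that include 1. The G2 and mitosis list, set beside the replication genes as a second measure of cycling, had 18 of 26 values below 0, a median of -0.09, and intervals below 1 for 9 of 26 and above 1 for 0, where 11.6% of all genes tested lay below and 13.8% above. Its members named by the rule were NDC80, a kinetochore protein (ratio 0.781, 0.659 to 0.924), HMMR (1.38, 0.919 to 2.09) and KIF20A (0.797, 0.685 to 0.928). Whether the lower G2 and mitosis values bear on the replication genes was not tested.

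**Figure D5:**
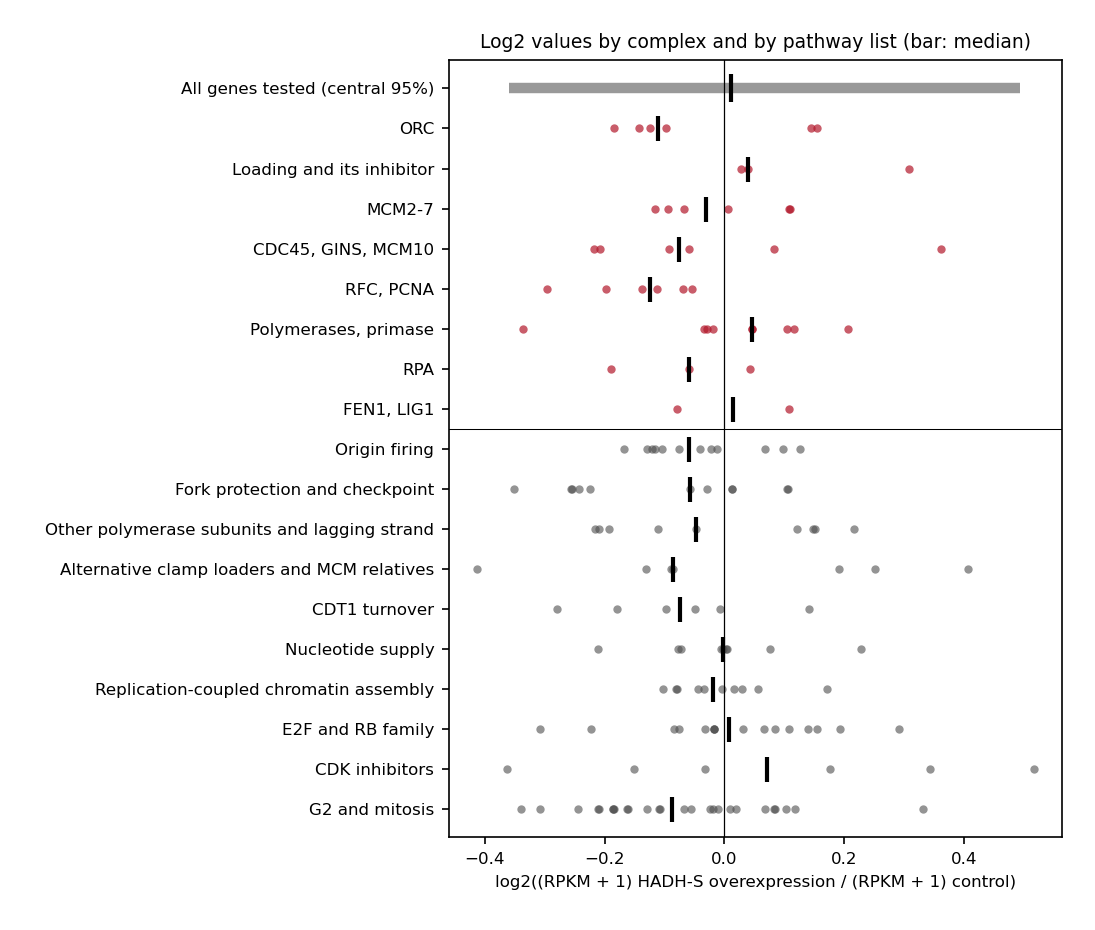
Log2 ratio, HADH-S cells over control cells with 1 added to each RPKM, of each replication gene by complex (upper block) and of each gene of the 10 pathway lists (lower block), with bars for medians. The top row gives the median (0.01) and the central 95% range (-0.36 to 0.49) of the 10331 genes tested, inside which every replication gene lies. Over the 8253 genes with at least 200 reads, not drawn, that range was narrower, -0.31 to 0.41, and PRIM1 at -0.34 lies outside it. The RFC and PCNA group has the lowest median of the upper block at -0.12.

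For the libraries as a whole, 6963608 reads fell on 12612 genes in HADH-S cells and 6773421 on 12501 genes in control cells. HADH, measured to check the labels, was at 54.4 RPKM in HADH-S cells against 26.5 in control cells (ratio 2.05, 1.79 to 2.35). Of 12 colon epithelial markers, 4 were listed (KRT18, EPCAM, CDX2 and KRT8), with a summed level of 111 RPKM in HADH-S cells against 106 in control cells, while CDH1, KRT20 and VIL1 were among the 8 not listed in either table. Of 9 fibroblast markers 0 reached 1 RPKM, the summed level being 0.115 RPKM in HADH-S cells against 0.0553 in control cells. Endothelial markers reached 1 RPKM for 1 of 7 (EGFL7; sum 58.6 RPKM in HADH-S cells against 48.6 in control cells, with PECAM1 and VWF not listed). Leukocyte markers reached it for 3 of 12 (CD68, LCP1 and CORO1A), with PTPRC and CD3D not listed. Their sum was 707 RPKM in HADH-S cells against 646 in control cells. Of these, CD68 was higher (478 RPKM in HADH-S cells, 389 in control cells). LCP1 (222 in HADH-S cells, 249 in control cells) and CORO1A (6.85 in HADH-S cells, 7.45 in control cells) were lower. The part of the cell type markers in the replication values was not tested.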

How the data were processed

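Each RNA library came as a deposited table that lists genes with an RPKM value, per the file headers; row names give the symbol, Ensembl gene and transcript, coding bounds and transcript length. Per the submitters' processing notes, shared by all samples, fastp 0.23.2, SAMtools 1.9 and GRCh38 were used. No source used here names the RNA aligner, the counter, its strand setting or the annotation release. RPKM times transcript length was a whole number of reads within 0.01 for 100% of values, and those reads gave exact conditional (Clopper-Pearson) 95% intervals of RPKM ratios. Intervals cover counting error only, since 1 library per condition gives no spread between libraries. PCR copies cannot be told from separate molecules, so the intervals may understate even that error. Unlisted genes were taken as 0 reads. Log2 values used a pseudocount of 1 among genes whose mean RPKM was 1 or more, which understates changes of low genes. The central tendency of a list is its median. No test between conditions was possible.

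Members and lists were chosen with earlier results of these data known, and the E2F word TTCCCGC was added after promoter windows had been read. Named genes were all 41 replication genes, up to 3 per pathway list by absolute log2 value, and HADH. Exceptions to this rule were CHTF8, added after its values were seen, the overlapping genes AP4M1 and UMAD1, and the cell type markers. The intervals were tested on simulated reads with counting error only, so that check does not cover the wider scatter of these libraries. Alternatives covered pseudocounts, filters, scaling, fold, interval level and a transcript length trend. The chromatin immunoprecipitation and input libraries were not analysed here. Python 3.11.15, NumPy 2.4.6, SciPy 1.17.1, pandas 2.3.3, statsmodels 0.14.6 and matplotlib 3.10.9 were used. RefSeq GRCh38.p14 gave coordinates and promoters, and 13073 of 13092 identifiers were in the gene name table.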

Additional observations from a re-analysis of the deposited data

How the results depend on the processing

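With 1 library per condition no replicate could be left out, and no paired analysis was possible because there is only 1 library in each condition. Each of the 41 log2 values moved by less than the half-width of its counting interval under all 7 alternatives, 287 comparisons in all. The rescalings and the smaller pseudocounts move every value by little, so this outcome was largely set in advance and is no measure of stability. None of the 8 values with an interval clear of 1 changed sign. Pseudocounts keep the sign and the rescalings lowered every value. For the 5 genes with an interval below 1, only removal of the length trend could therefore have changed the sign. The count of replication genes with an interval above 1, 3 as reported, was 1 with 99% intervals (CDT1) and 2 under each rescaling, which left out POLA2. Over the 10331 genes 7.86% lay above 1 with 99% intervals and 11.4% to 12.6% under the rescalings. The count below 1, 5 as reported, was 3 with 99% intervals (GINS1, RFC4, PRIM1), 12 with equal RPKM totals and 9 with the median of all genes set to 0 or with equal 75th percentiles. The shares of the 10331 genes below 1 were 6.63% with 99% intervals, 14.4% with equal RPKM totals, 12.9% with the median at 0 and 13.3% with equal 75th percentiles. Leaving out the third E2F word took the replication promoters with a word to 15, against 24 as reported. Across the 8253 genes with at least 200 reads the scatter of ratios was 1.83 times that predicted from read counts. When intervals were widened by that factor, which was chosen after the data had been seen, both counts were 0. The median over the 41 genes, -0.05 as reported, was -0.0787 with equal RPKM totals and -0.0244 as a mean. The mean of the alternative clamp loader list was 0.0185 beside a median of -0.09, which differs in sign. Equal RPKM totals set the median of all genes to -0.01.

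Of all genes tested, 31 were higher at 2-fold. That number was 69 and 8 with pseudocounts of 0.1 and 5, 152 and 1193 at 1.5-fold and 1.2-fold, 12 when a mean of 5 RPKM was required, and 10 among genes with 200 reads or more. The 5 lower genes became 15, 8 and 0 with pseudocounts of 0.1, 0.5 and 5, 45 and 698 at 1.5-fold and 1.2-fold, 9 without a filter, and 0 both when a mean of 5 RPKM was required and among genes with 200 reads or more. The check against reference protein lengths was not run. Depth limits the low genes most: RPA3, at 118 and 111 reads, has an interval that allows a ratio from 0.791 to 1.35.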
